A study of Mus musculus with 4 samples.

Results

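The AP-1 transcription factor genes were measured in recruited renin cells, the kidney cells that begin to make renin when blood pressure or salt balance is threatened. The members were 10 genes taken by symbol from a table of 32647 gene symbols: Fos, Fosb, Fosl1 and Fosl2 of the Fos group, Jun, Junb and Jund of the Jun group, and the related Atf3, Maff and Batf. Of these 10 genes, 9 were above 0 in any library, against 19229 symbols of the whole table. All 4 libraries came from 1 condition, adult C57BL/6 mice (2 months old) that carried the Ren1c-YFP transgene, a yellow fluorescent protein under control of the renin promoter. The mice drank 0.5 g/L captopril, which blocks angiotensin II formation, and ate a low-sodium diet for 1 week. Kidney cortex was minced and digested with collagenase, trypsin and DNase in 3 rounds of 15 min at 37 °C, fluorescent cells were sorted, and cDNA was amplified from a small pool of cells. There were 2 biological samples with 2 technical replicates each. Where the technical replicates were split is not stated in the sources used here.

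AP-1 is a dimer of basic leucine zipper proteins that binds DNA at the TPA-responsive element and, in some pairings, at the cyclic AMP-responsive element. Fos proteins need a partner such as a Jun protein, whereas Jun proteins can also pair with each other. Several members are immediate-early genes, whose transcripts appear within minutes of a growth factor, calcium, cyclic AMP or stress signal and are soon degraded. In renin cells cyclic AMP and its factor CREB are the main known drive of the renin gene, and CREB also acts on the Fos promoter. Enzymatic digestion of tissue is itself known to induce Fos, Jun, Atf3 and heat shock genes. All 4 libraries were digested and no undigested or untreated cells are analysed here, so digestion and the recruited state cannot be told apart as the origin of any level below.

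The promoters of Fos, Jun and Maff are shown because they hold the elements through which AP-1 and CREB-type factors are known to act on such genes. Of the 10 members, 9 matched RefSeq promoters on GRCm38.p6, which run from 250 bases before to 50 bases after a start site, and these members had 11 such windows. Fosl1 had none. Positions count back from the start site, at the 5′ base of each match. In the Fos stretch (chr12:85473790-85473869, + strand), capitals mark the cyclic AMP half-site TGACG at −66 and the TATA box TATAAA at −33. In the Jun stretch (chr4:95052253-95052402, − strand), capitals mark the elements TTACCTCA at −164 and TGACATCA at −45, both known in Jun as sites of Jun and ATF dimers. In the Maff stretch (chr15:79347420-79347519, + strand), capitals mark a full cyclic AMP element, TGACGTCA, at −29.
Fos: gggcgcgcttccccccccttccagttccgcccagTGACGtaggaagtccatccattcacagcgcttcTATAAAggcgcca
Jun: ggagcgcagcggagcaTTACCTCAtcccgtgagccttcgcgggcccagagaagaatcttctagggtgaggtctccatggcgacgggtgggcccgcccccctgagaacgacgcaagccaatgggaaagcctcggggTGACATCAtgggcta
Maff: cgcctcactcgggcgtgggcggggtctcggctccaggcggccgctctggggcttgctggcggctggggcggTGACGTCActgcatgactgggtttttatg
The search covered both strands, except that TATAAA was sought on the strand of the gene alone. The consensus AP-1 site, TGACTCA or TGAGTCA, was in none of the 11 member windows and in 5.20% of all 32851 windows of this length. The half-site TGACG or CGTCA, which is also part of the full element, was in 7 of the 11 member windows and in 20.8% of all windows. These 7 windows belonged to 6 of the 9 members: Fos, Fosb, Junb, Atf3, Maff and Batf. TGACGTCA was in a window of Maff alone among the members and in 1.79% of all windows. TGACATCA or its reverse complement was in windows of Jun and Maff and in 3.62% of all windows, and TTACCTCA or its reverse complement in that of Jun and in 0.889%. TATAAA was in the windows of Fos and Junb and in 8.32% of all, but in Junb it began at the start site itself. The CArG box, the site of serum response factor, was in no member window and in 1.63% of all. Bases more than 250 before a start site were not searched, so this does not show that a member lacks such a site. These matches describe letters in a window and not bound sites.

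TPM, a transcript level per effective length that sums to the same total in every library, was used throughout. A level is the mean of the biological samples, themselves averaged over technical replicates, and its SD is over biological samples (n = 2). Estimated counts totalled 19871382 to 47471036 per library, and 6405 to 8709 genes reached 1 TPM. Renin itself, Ren1, was at 29637 and 28674 TPM in sample 1 and at 21904 and 15933 TPM in sample 2, and 10 of 12 renin cell genes reached 1 TPM in every library. Among all symbols above 0 TPM in any library 16.5% did. Transcripts of other kidney and blood cells were also found. By the same measure 8 of 12 proximal tubule, 6 of 10 distal nephron and 4 of 5 erythroid genes were in every library. Fewer were of the endothelial (2 of 10), podocyte (1 of 7), fibroblast (1 of 7) and leukocyte (2 of 12) genes. Distal nephron genes summed to 80.8 and 301 TPM in sample 1 and to 1555 and 1402 TPM in sample 2. Proximal tubule genes summed to 1042 to 1826 TPM in 3 libraries and to 13255 TPM in technical replicate 2 of sample 2, of which Kap, an androgen-regulated tubule gene, held 11140 TPM. Without Kap these sums were 992 and 1022 TPM in sample 1 and 590 and 2115 TPM in sample 2. The 5 erythroid genes, nearly all globin, summed to 45.9 TPM in technical replicate 1 of sample 1 and to 5083 to 10803 TPM in the others, while Alas2 stayed below 1 TPM in every library. The sums over 10 endothelial, 7 podocyte and 7 fibroblast genes stayed between 9.75 and 142 TPM. In such bulk samples fewer cells of a type and less RNA per cell cannot be told apart. The authors' deposited mean leaves out technical replicate 1 of sample 1.

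Together the AP-1 genes held 1265 ± 710 TPM (SD, n = 2). The sum was 1901 and 1632 TPM in the technical replicates of sample 1, and 903 and 623 TPM in those of sample 2. As a share of all TPM this was 0.190% and 0.163% in sample 1, and 0.0903% and 0.0623% in sample 2. Both libraries of sample 1 thus lay above both of sample 2. Of the 10 members, 7 reached 1 TPM in every library: Fos, Fosb, Fosl2, Jun, Junb, Jund and Atf3. Among all symbols above 0 TPM in any library, 16.5% were. The median level of the 10 members was 62.0 TPM, against 1.33 TPM over all symbols above 0 TPM in any library. Fosl1 was at 0 TPM in every library, and Maff and Batf were at 8 reads or fewer in 1 library of each sample.

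**Figure D1:**
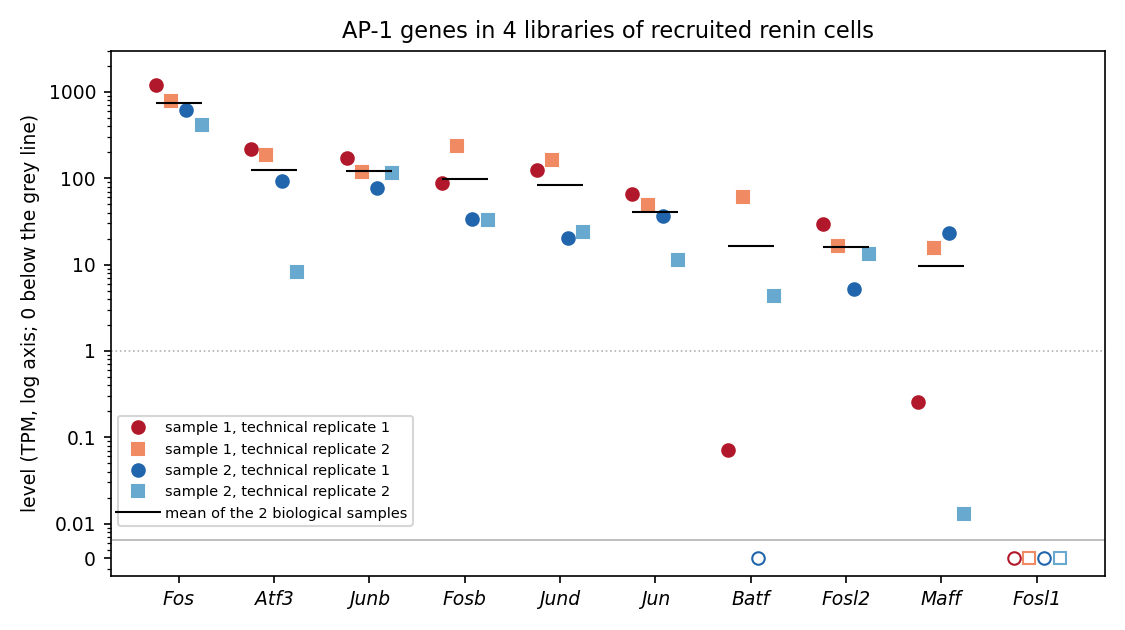
Level of each AP-1 gene (TPM, log axis, with 0 drawn below the grey line) in the technical replicates of sample 1 (red, orange) and sample 2 (blue, light blue), with the mean of the biological samples as a bar and 1 TPM dotted. Fos led in every library, 7 genes stayed above 1 TPM in all of them, and Batf spread from 0 to 61.1 TPM and Maff from 0.0130 to 22.9 TPM.

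Fos, the partner-dependent activator that gives the Fos group its name, was the most abundant AP-1 gene in every library. Fos (ENSMUSG00000021250, GRCm38 chromosome 12, 85473890 to 85477273, + strand, 4 exons) was at 1200 and 791 TPM in sample 1 and at 615 and 413 TPM in sample 2. The mean was 755 ± 340 TPM (SD, n = 2), or 606 TPM in the authors' deposited mean. Whole reads could be recovered from TPM and effective length, and Fos had 52288 and 61235 reads in sample 1 and 43082 and 42805 reads in sample 2. The gene ranked 178 among all symbols and 170 among protein-coding genes, above 99.1% of symbols above 0 TPM in any library. Fos alone made up 63.1% and 48.4% of the AP-1 sum in sample 1, and 68.1% and 66.3% in sample 2. Set against renin, Fos was at 40.5 and 27.6 TPM per 1000 TPM of Ren1 in sample 1 and at 28.1 and 25.9 in sample 2, so that 3 of the 4 libraries lay close together.

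Fosb, a Fos relative known for stable splice forms that accumulate on repeated stimulation, was at 87.9 and 236 TPM in sample 1 and at 33.5 and 32.8 TPM in sample 2 (chromosome 7, 19302696 to 19310051, − strand, 4 exons). Its mean was 97.5 ± 90.9 TPM (SD, n = 2). The libraries of sample 1 lay further apart in TPM than in reads. Technical replicate 2 of sample 1 was 2.68-fold above technical replicate 1 in TPM and 1.50-fold above it in RPM, reads scaled to the library total. Its effective length for Fosb was 951 bases, against 1935 bases in technical replicate 1 and 1649 and 1991 bases in sample 2. Tximport averages effective length over the isoforms of a gene by their abundance, and 6 coding isoforms of Fosb are annotated, but isoforms are not resolved in the gene table. The remaining Fos genes were lower. Fosl2, which encodes Fra-2 (chromosome 5, 32135801 to 32157842, + strand, 4 exons), was at 29.7 and 16.5 TPM in sample 1 and at 5.18 and 13.2 TPM in sample 2, with a mean of 16.2 ± 9.83 TPM (SD, n = 2). Its reads fell between 1318 and 4852 per library. Fosl1, which encodes Fra-1 (chromosome 19, 5447547 to 5455946, + strand, 4 exons), had 0 reads in all 4 libraries. A count of 0 allows up to 3 reads, or 0.0635 and 0.0384 TPM in sample 1 and 0.0322 and 0.0263 TPM in sample 2. The limits cover counting error only, since reads of amplified cDNA are not independent molecules.

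The 3 Jun genes were all present in every library, each from a single exon. Jun, the founding member and a target of its own protein, lies on chromosome 4 (95049034 to 95052222, − strand). It was at 65.5 and 48.8 TPM in sample 1 and at 36.8 and 11.3 TPM in sample 2, with a mean of 40.6 ± 23.4 TPM (SD, n = 2). Junb, which can oppose Jun at some promoters, was at 172 and 117 TPM in sample 1 and at 76.9 and 116 TPM in sample 2 (chromosome 8, 84974484 to 84978718, − strand). Its mean of 121 ± 33.8 TPM (SD, n = 2) had the smallest SD relative to its mean of the 7 genes found in every library, and technical replicate 2 of each sample differed by less than 1 TPM. Jund, which most cells make without a stimulus, was at 126 and 163 TPM in sample 1 and at 20.6 and 23.8 TPM in sample 2 (chromosome 8, 70698949 to 70700616, + strand). Its technical replicates lay close together and its biological samples far apart, with a mean of 83.4 ± 86.6 TPM (SD, n = 2). Jund rested on few reads for its level, 1018 and 2057 in sample 1 and 379 and 478 in sample 2.

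Of the 3 related factors, Atf3 was the most abundant. Atf3, a stress-induced factor that pairs with Jun proteins and represses as a dimer of itself, was at 219 and 184 TPM in sample 1 and at 92.0 and 8.11 TPM in sample 2 (chromosome 1, 191170296 to 191218039, − strand). Its mean was 126 ± 107 TPM (SD, n = 2). Technical replicate 1 of sample 2 had 6451 reads and technical replicate 2 had 835, the largest ratio between technical replicates among the 7 genes found in every library. Maff, a small Maf protein that lacks a transactivation domain of its own, was at 0.258 and 15.6 TPM in sample 1 and at 22.9 and 0.0130 TPM in sample 2 (chromosome 15, 79346621 to 79359076, + strand). These were 8 and 879 reads in sample 1 and 1121 and 1 reads in sample 2, so 1 library of each sample held nearly all of them. Batf, best known as a partner of Jun proteins in lymphocytes, was at 0.0705 and 61.1 TPM in sample 1 and at 0 and 4.30 TPM in sample 2 (chromosome 12, 85686669 to 85709087, + strand). Its reads were 1 and 1550 in sample 1 and 0 and 153 in sample 2, and the 0 allows up to 0.103 TPM. The 12 leukocyte genes, set beside Batf for that reason, summed to 42.3 and 498 TPM in sample 1 and to 342 and 1051 TPM in sample 2. In the 3 libraries with the higher sums most of this was Cd74 and class II genes, and the macrophage genes Lyz2, Cd68 and C1qa were at 0 TPM in every library. The B cell gene Cd79a was at 27.0 and 20.7 TPM in sample 1 and at 0.160 and 0.0411 TPM in sample 2. It made up most of the sum in technical replicate 1 of sample 1. The T cell gene Cd3e stayed below 1 TPM in every library. The part of the leukocyte genes in the level of Batf was not tested. The means of Maff and Batf, 9.70 ± 2.51 and 16.4 ± 20.1 TPM (SD, n = 2), hide this spread within samples.

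By mean TPM the order was Fos, Atf3, Junb, Fosb, Jund, Jun, Batf, Fosl2, Maff and Fosl1. The step from Fos to the next gene and that down to Fosl1 held in every library, and no other step did. Each neighbouring pair from Atf3 down to Maff differed by less than the larger SD of the pair, except Jun and Batf, whose order was reversed in technical replicate 2 of sample 1. The Fos group summed to 3.67 ± 0.390 times the Jun group (SD, n = 2). The ratio was 3.62 and 3.17 in sample 1 and 4.86 and 3.03 in sample 2, above 1 in every library.

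These levels between genes depend on the effective length. TPM divides reads by the deposited effective length, and these lengths fell with the G+C content of the transcript. Among 2976 genes found in every library, the median effective length was 71.5% of the annotated length at up to 40% G+C (155 genes). It was 22.8% above 65% G+C (9 genes, Jund among them). The annotated length is that of the longest coding transcript, so these percentages also depend on isoform use. Junb, with 62.6% G+C, was counted at 25.6% of its annotated length, and Jund, with 67.1% G+C, at 15.4%. Lower still were 14.1% of these genes for Junb and 4.97% for Jund. Fos, with 51.9% G+C, was counted at 61.6%, Atf3 at 64.0%, Fosl2 at 69.8%, Jun at 52.1% and Fosb at 43.1%. Jund had an effective length of 248 and 235 bases in sample 1 and of 287 and 256 bases in sample 2. In 3 of these libraries it was exactly the length given to 76, 55 and 27 other symbols, which no other member shared with any symbol. The annotated length of Jund is from GENCODE M21 and may differ in the Ensembl release the authors used.

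**Figure D2:**
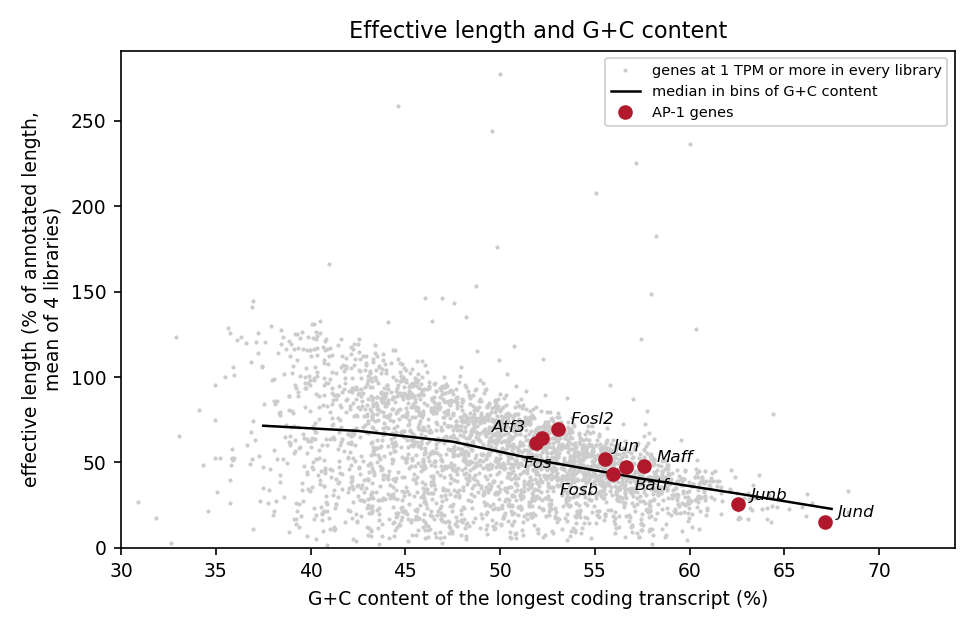
Effective length as a percentage of annotated length (mean of 4 libraries) against the G+C content of the longest coding transcript, for 2976 genes (grey), their median in bins of G+C content (line) and the AP-1 genes above 0 TPM (red). Jund at 15.4% and Junb at 25.6% lie at the G+C-rich, short end, and Fosl2 at 69.8%, Atf3 at 64.0% and Fos at 61.6% at the other end of the family.

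When reads were divided by the annotated transcript length in place of the effective length, Fos stayed first and several of the others changed place. On this scale, in RPKM, Fos averaged 797, Atf3 140, Fosb 59.0, Junb 53.2, Jun 36.4, Jund 21.3, Fosl2 19.6, Batf 15.0 and Maff 7.46. Junb lay below Fosb, Jund below Jun and Batf below Fosl2, each the other way round from TPM. The Fos group was then 8.01 times the Jun group, against 3.67 times in TPM. That the Fos group exceeded the Jun group held on both scales in every library, whereas the size of the excess and the place of Junb and Jund in the order did not hold.

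**Figure D3:**
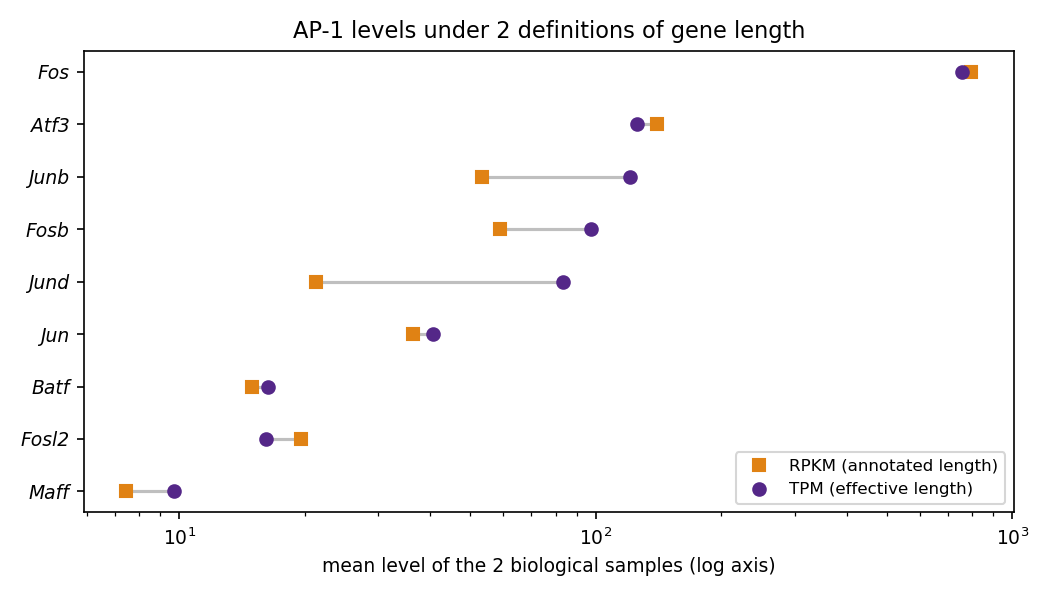
Mean level of each detected AP-1 gene (log axis) in TPM, which uses the effective length (purple circles), and in RPKM over the annotated transcript length (orange squares). The scales nearly coincide for Fos, at 755 and 797, and differ most for Jund, at 83.4 and 21.3.

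The samples were then compared with each other, as sample 1 over sample 2 on TPM + 1. They are replicates of 1 condition, so no test was made, and the difference is described beside that of all genes. All 7 AP-1 genes found in every library were higher in both libraries of sample 1 than in both of sample 2 in TPM. Among all genes found in every library 25.0% were, and 24.2% among those above 0 TPM in any library. No member lay the other way, against 9.21% of all genes, and Maff and Batf overlapped. The fold was 1.93 for Fos, 4.76 for Fosb, 2.36 for Fosl2, 2.32 for Jun, 1.49 for Junb, 6.28 for Jund and 3.97 for Atf3. Fosb and Jund were at least 4-fold apart without overlap, as were 6.90% of all genes, and Atf3 was just below that line. Without technical replicate 1 of sample 2, 5 members passed it: Fosb, Jun, Jund, Atf3 and Maff. Maff did so with 8 reads in 1 library of sample 1 against 1 read in sample 2. With only 1 library of sample 2 left, overlap is less likely for every gene. In RPKM over the annotated length, all libraries kept, Jund at 5.55-fold and Atf3 at 5.25-fold passed it, and Fosb at 3.48-fold did not. The share of all genes that passed is not given for these alternatives.

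The separation of the samples depended on the scaling. TPM are shares, and the median gene found in every library was itself at a log2 difference of 0.16 between the samples. With median-of-ratios scaling that median was at −0.61, and 3 members, Fosb, Jund and Atf3, had both libraries of sample 1 above both of sample 2, among 17.2% of all genes above 0 TPM. On that scale Fos was at a log2 difference of 0.10, against 0.95 in TPM, and Junb turned to −0.29, against 0.58 in TPM. Fos and Junb lay above the median gene found in every library on both scales, since that gene moved down with them. Relative to Ren1, 4 members were separated, those 3 and Jun, among 18.1% of all genes above 0 TPM, the median gene was at −0.47, and Junb was at −0.13. With either of these scalings no member was both without overlap and at least 4-fold apart. Fosb, Jund and Atf3 were thus the members separated under TPM, annotated length, Ren1 and median-of-ratios scaling alike. The distal nephron genes went the opposite way in TPM, with 8 of 10 higher in both libraries of sample 2 and 0 in both of sample 1. Their part, and that of the renin share, in the difference of the AP-1 genes was not tested.

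**Figure D4:**
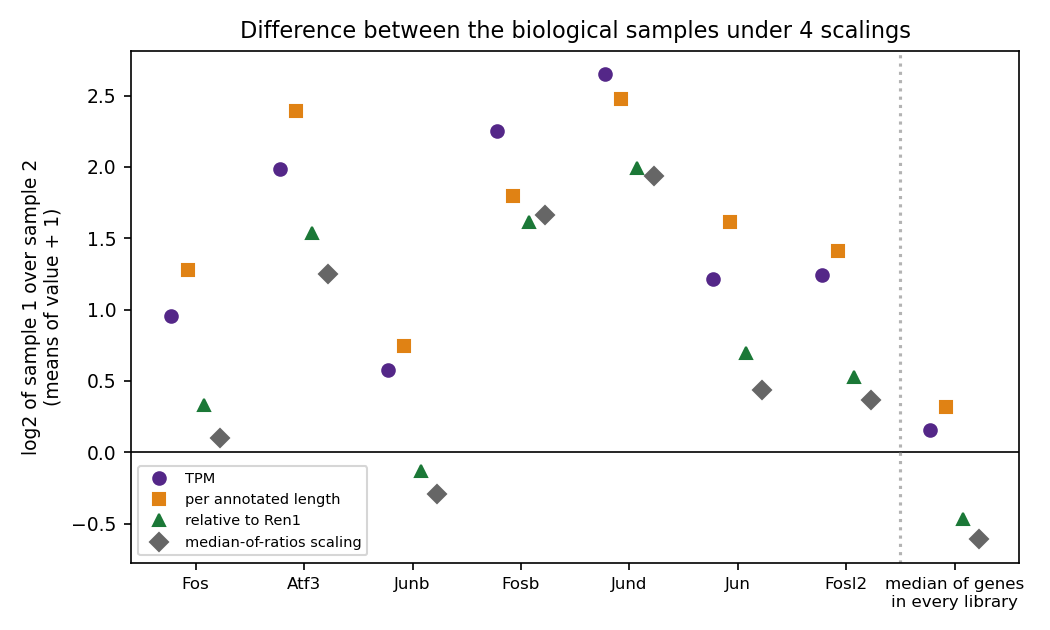
Difference between the biological samples (log2 of sample 1 over sample 2, on values + 1) for the 7 AP-1 genes found in every library and for the median of all such genes, under 4 scalings. Jund, Fosb and Atf3 stay above 1 under each scaling, and the median gene moves between 0.32 and −0.61. With median-of-ratios scaling Fos falls to 0.10 and Junb to −0.29, where the median gene is at −0.61.

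The spread between technical replicates differed widely among the AP-1 genes. On TPM + 1, the technical replicates of Batf were 58.0-fold apart in sample 1 and 5.30-fold in sample 2, and those of Maff 13.2-fold in sample 1 and 23.6-fold in sample 2. Atf3 was 10.2-fold, Jun 3.08-fold and Fosl2 2.30-fold apart in sample 2, and Fosb 2.66-fold in sample 1. Fos, Junb and Jund stayed within 1.52-fold in both samples. The median fold between technical replicates for the 7 members found in every library, which leaves out Maff, Batf and Fosl1, was 1.47 in sample 1 and 1.51 in sample 2, against 2.02 and 2.01 for all 3179 genes found in every library. Between libraries of different samples it ranged from 1.99 to 4.06 for the members and from 2.16 to 2.34 for all genes. The members lie at higher levels than most of those genes, which bears on technical spread and was not matched here.

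The genes whose pattern was most like that of Fos over the 4 libraries were not AP-1 genes. Among 1298 genes at 10 TPM or more in every library, the smallest distances in centred log2(TPM + 1) were those of Laptm4a, a lysosomal membrane protein, at 0.11, Gm17571 at 0.19, the ribosomal protein gene Rpl32 at 0.22, the mitochondrial thioredoxin Txn2 at 0.23 and the acylphosphatase Acyp2 at 0.26. Of the members compared, Jun stood at position 150 (distance 0.89), Junb at 157 (0.90), Fosb at 747 and Jund at 771, and the median distance was 1.70. With 4 libraries many genes can share a pattern.

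Genes around AP-1 are given next, and their counts can be read beside the 16.5% of all symbols above 0 TPM that reached 1 TPM in every library. Of 20 other basic leucine zipper partners, 6 reached 1 TPM in every library. The highest of the 20 were Ddit3, the stress factor CHOP, at 167 ± 54.5 TPM, the stress factor Atf4 at 96.0 ± 79.8 TPM and Atf7 at 41.4 ± 57.6 TPM (SD, n = 2). Atf7 was at 0.377 and 0.974 TPM in sample 1 and at 48.0 and 116 TPM in sample 2, so it came almost wholly from sample 2. Of 11 CREB and C/EBP factors in the table, 5 were in every library: Cebpb, Crem, Xbp1, Creb3 and Cebpd. Cebpb, a factor of acute-phase and stress responses, led them at 84.3 ± 56.0 TPM (SD, n = 2). Crem, the cyclic AMP response modulator, was at 44.6 and 4.26 TPM in sample 1 and at 36.7 and 3.62 TPM in sample 2, high in technical replicate 1 of each. Of 27 kinases and factors upstream of AP-1, 8 were in every library, led by Mapk3, which encodes ERK1, at 43.2 ± 34.2 TPM, and the kinases Map2k3 at 28.9 ± 20.3 TPM and Map2k2 at 21.9 ± 9.98 TPM (SD, n = 2).

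Of 18 feedback genes, which switch off these kinases or degrade early transcripts, 4 were in every library: the phosphatase gene Dusp1 at 176 ± 104 TPM, and Zfp36 at 164 ± 28.6 TPM, Zfp36l1 at 22.7 ± 13.6 TPM (SD, n = 2) and Zfp36l2 of the RNA-binding tristetraprolin family. Of 12 known targets of CREB, 4 were in every library: Rgs2, a brake on G protein signalling, Nr4a1, Crem and the member Fosl2. Rgs2 was even across libraries, at 57.9 and 68.0 TPM in sample 1 and at 76.7 and 63.6 TPM in sample 2. Nr4a1, an orphan nuclear receptor and immediate-early gene, averaged 40.8 ± 39.9 TPM, and Pde4b, a phosphodiesterase that degrades cyclic AMP, 37.7 ± 43.1 TPM (SD, n = 2). Pde4b was at 117 and 19.5 TPM in sample 1 and at 14.4 and 0.0580 TPM in sample 2, so it missed 1 TPM in a single library. Of 24 known AP-1 targets 8 were in every library, and of the 23 above 0 TPM, 8 were higher in both libraries of sample 1 and 2, Spp1 and Vegfa, in both of sample 2. Among all genes 24.2% and 9.21% were, and with median-of-ratios scaling the targets were at 5 and 4. Spp1, which encodes osteopontin and is also made by kidney tubules, was at 333 and 149 TPM in sample 1 and at 3160 and 723 TPM in sample 2. Vim, the intermediate filament gene, was at 319 and 303 TPM in sample 1 and at 160 and 158 TPM in sample 2, and Lmna averaged 90.6 ± 42.0 TPM (SD, n = 2).

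Genes that digestion is known to induce were set beside the AP-1 genes. Of 26 other immediate-early genes 12 were in every library, led by Gadd45g at 364 ± 111 TPM, the flow-responsive factor Klf2 at 336 ± 320 TPM and Egr1 at 238 ± 121 TPM (SD, n = 2). None of the 26 exceeded Fos by mean level. They summed to 2792 and 2126 TPM in sample 1 and to 859 and 1201 TPM in sample 2, a 2.39-fold difference of the sample means. That of the AP-1 genes was 2.32-fold, and that of the kinases and factors upstream of AP-1 was 2.35-fold. Without the highest gene of each list it was 2.71-fold for the other immediate-early genes (without Gadd45g) and 3.10-fold for the AP-1 genes (without Fos). For the kinases and factors upstream it was then 2.15-fold (without Mapk3). The renin cell genes were at 1.85-fold with Ren1 and at 2.61-fold without it, a sum that was mostly Crip1. Of the 24 other immediate-early genes above 0 TPM, 11 were higher in both libraries of sample 1 and 0 in both of sample 2, against 24.2% and 9.21% of all genes. With median-of-ratios scaling they were 7 and 1, against 17.2% and 14.3% of all genes, and relative to Ren1 9 and 0, against 18.1% and 12.6%. Of 35 genes of dissociation and heat shock, 30 were in every library, and their median level of 62.7 TPM was near the 62.0 TPM of the AP-1 genes. They summed to 6584 and 5978 TPM in sample 1 and to 4924 and 4966 TPM in sample 2, a 1.27-fold difference that rested on Hspb1. Without Hspb1 they summed to 4709 and 4143 TPM in sample 1 and to 4707 and 4718 TPM in sample 2, with sample means of 4426 and 4712 TPM. Of the 35, 13 were higher in both libraries of sample 1 and 5 in both of sample 2, against 24.2% and 9.21% of all genes, and with median-of-ratios scaling 5 and 7. Hspb1, a small heat shock protein, was at 1876 and 1835 TPM in sample 1 and at 217 and 248 TPM in sample 2. The metallothionein Mt1 went the other way, at 689 and 387 TPM in sample 1 and 1668 and 1198 TPM in sample 2, and Hspa8 averaged 655 ± 126 TPM (SD, n = 2). The dissociation list and the CREB or feedback lists share 4 genes, Cebpb, Cebpd, Dusp1 and Zfp36.

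**Figure D5:**
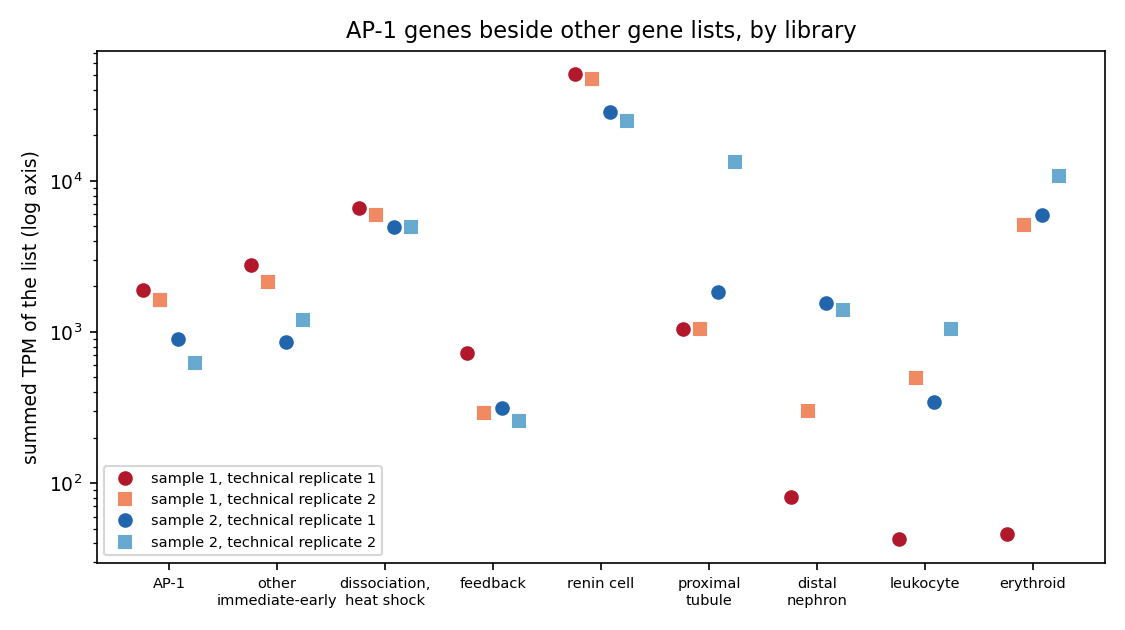
Summed TPM (log axis) of the AP-1 genes and of 8 other gene lists in the technical replicates of sample 1 (red, orange) and sample 2 (blue, light blue). The AP-1 and other immediate-early sums are higher in both libraries of sample 1, at 1632 to 1901 and 2126 to 2792 TPM. So are the renin cell sums, at 47480 to 50961 TPM, and the dissociation and heat shock sums, at 5978 to 6584 TPM. Distal nephron sums are higher in both libraries of sample 2, at 1402 to 1555 TPM, as are the proximal tubule and erythroid sums.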

How the data were processed

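RNA-seq of recruited renin cells gave 4 libraries, 2 biological samples with 2 technical replicates each, all of 1 condition. The authors made cDNA with the SMARTer chemistry and Nextera XT libraries, checked reads with FastQC, trimmed them with Trimmomatic 0.36, quantified GRCm38 transcripts with Salmon 0.7.2 (Ensembl release not given in the sources used here) with gene summaries from Tximport 1.2.0 (lengthScaledTPM). No step that marks strand is described, so reads of a gene and of an overlapping antisense gene may not be told apart. The authors deposited TPM, estimated counts that Tximport rescales from TPM and that need not be whole, effective lengths, and a mean TPM of 3 libraries.

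The deposited TPM were averaged with Python 3.11.15, pandas 2.3.3 and numpy 2.4.6, and drawn with matplotlib 3.10.9. Reads were recovered as TPM times effective length, scaled to the total of estimated counts. All 40 member values came out whole within 0.05 reads, as did 59.2% to 63.8% of genes above 0 TPM per library. Annotated lengths, G+C content and coordinates are from GENCODE M21 on GRCm38, for the longest coding transcript. Fold changes are on TPM + 1 (pseudocount 1), which understates changes of low genes. No counting interval is given for the depth of 19871382 to 47471036 estimated counts, because amplified cDNA carries no molecular identifiers here, so only limits at a count of 0 (3 reads) are printed. A gene was called different where the technical replicates of both samples did not overlap and their means differed at least 4-fold. The calculations were tested on simulated data with changes well above the 4-fold line and less spread than in these libraries. That test checks the code and not the calls in these data. Between these replicates of 1 condition the rule calls many genes, so a call is a description. No p-value was computed, since there is 1 condition with 2 biological samples.

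The members and the gene lists were chosen with earlier results of these data known, and no list was tested for enrichment. Named were all members, the 3 highest genes of each list around AP-1 (those of the marker lists only where they describe a sum), any gene behind a count of 5 or fewer, and the 5 genes most like Fos. Alternatives left out each library or biological sample, rescaled TPM, used estimated counts, the deposited mean, geometric means or other minimum levels, folds and pseudocounts. Annotated length and scaling by Ren1 were added after seeing the data, as were the scalings and sums of the other lists and the leave-one-out and scaling alternatives of the difference between samples.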

Additional observations from a re-analysis of the deposited data

Results flagged for a closer look

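Of 12 quantities examined over the 4 libraries (the 10 members, their sum and the ratio of the Fos to the Jun group), 1 had a library far from the others. Batf was at 61.1 TPM in technical replicate 2 of sample 1, against 0.0705 TPM in technical replicate 1 of that sample and 0 and 4.30 TPM in sample 2. The gap to the nearest library was 0.930 of the whole range, beyond Dixon's 95% critical value for 4 values. Such a gap arises by chance in about 1 in 20 quantities where values are independent, which technical replicates are not. The library held 1550 reads of Batf, and its leukocyte genes summed to 498 TPM, against 1051 TPM in technical replicate 2 of sample 2, where Batf was at 4.30 TPM. The part of these genes in the level of Batf was not tested.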

How the results depend on the processing

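The summed TPM of the members, 1265, was 2313 without the 20 highest genes and 2574 in CPM of estimated counts, and ranged from 1195 to 1335 when 1 library was left out. Both larger values follow from construction, since the first step raises every remaining gene and the second does not divide by length. The 7 members found in every library stayed 7 under each alternative but 2, with 9 in the deposited mean and 5, without Fosl2 and Atf3, at a minimum of 10 TPM. The ratio of the Fos to the Jun group, 3.67, ranged from 3.22 to 4.13 when 1 library was left out and was 8.39 in CPM of estimated counts and 8.01 per annotated length. The 2 members called different between the samples ranged from 2 to 5 when 1 library was left out, the 5 without technical replicate 1 of sample 2, and were 5 at 2-fold (Fosb, Fosl2, Jun, Jund and Atf3), 0 with median-of-ratios scaling and 0 relative to Ren1. Per annotated length they were also 2, but Jund and Atf3 in place of Fosb and Jund. The share of all genes called is not given for these alternatives. Of 130 values of single members under alternatives, 112 moved by less than the SD over samples and 18 by more, but with 2 samples that SD is wide. Leaving out 1 of 2 biological samples cannot move a mean by more than that SD, and Fosl1 was 0 throughout. Part of the 112 was thus fixed in advance, and the tally does not measure stability. Batf, at 16.4 TPM, ranged from 1.11 to 31.6 TPM when 1 library was left out (1.11 without technical replicate 2 of sample 1), Maff, at 9.70 TPM, from 3.97 to 15.4 TPM, and Fosb, at 97.5 TPM, from 60.5 to 134 TPM, while the other detected members moved by at most 1.26-fold. No paired analysis was possible because there is only 1 group. Maff and Batf had at most 8 reads in 2 libraries each. Maff had 1 read in the deepest library, while Batf had 1 and 0 reads in the shallower library of sample 1 and of sample 2. The part of depth in these counts was not tested. Depth limits the 0 of Fosl1.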
